A study of Mus musculus with 13 samples.

Results

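Enteroendocrine cells are the hormone-secreting cells of the gut epithelium. Here they were taken from single-cell libraries of mouse small intestine as cells with at least 3000 transcripts, spike-in RNA not counted, in which Chga, Chgb, Cpe and Neurod1 together reached at least 10 per 10000 transcripts and the tuft cell genes Dclk1, Trpm5 and Rgs13 together stayed under 20 per 10000. These thresholds selected 98 of 560 kept cells from the 8 libraries of 3 and 8 weeks, against 462 other kept cells. The whole series kept 892 of 1248 cell barcodes in 13 libraries.

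All mice were Lgr5-CreERT2 C57Bl6/J animals bred to a Rosa26LSL-YFP reporter line, so that tamoxifen-activated Cre marks Lgr5+ stem cells and their offspring with YFP; marked cells are called traced and unmarked ones non-traced. The groups used were 3-week traced CD24+ cells (1 library, 7 enteroendocrine cells of 62 kept), 1 library whose label reads 3-week non-traced CD24+ (2 of 50), 8-week traced CD24+ cells (3 libraries, 19 of 87, 18 of 65 and 16 of 69), 8-week non-traced CD24+ cells (2 libraries, 19 of 84 and 12 of 63) and 8-week traced cells sorted without CD24 (1 library, 5 of 80). CD24 is a surface protein that served as a sorting gate, and marking starts in the Lgr5-expressing cells only. Ages of the mice are not given in the sources used here. In the combined table of the series the cells labelled 3-week non-traced CD24+ carry a set name with YFP and without CD24. That name goes against the label, so this library enters no test, and below it is called the disputed 3-week library. Its 2 cells, 1 Gip and 1 Ghrl cell, are counted in the descriptions over all 98 cells, and 96 cells remain without it. Names in the same table, matched to libraries by identical values, also divide the 8-week CD24+ libraries in 2 sets: traced replicates 2 and 3 and non-traced replicate 2 carry II in their names, here called the second set, and replicate 1 of traced and non-traced cells does not, here called the first set. What II stands for is not stated. Whether libraries came from separate mice is not stated, so the p-values measure only the spread between libraries, which may be technical.

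Enteroendocrine cells arise from crypt progenitors that switch on the transcription factor Neurog3 for a short time, followed by Neurod1, Pax6, Isl1 and other factors. They store peptide hormones or serotonin in dense-core granules, whose matrix proteins include the chromogranins Chga and Chgb and whose prohormones are cut by Pcsk1 and trimmed by Cpe. Different cells release different hormones, among them Gip, cholecystokinin (Cck), secretin (Sct), glucagon-like peptides (Gcg), peptide YY (Pyy), neurotensin (Nts), somatostatin (Sst) and ghrelin (Ghrl), while enterochromaffin cells make serotonin with Tph1 and the tachykinin precursor Tac1.

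The 8 libraries held 421675 to 1385266 transcripts each, and the enteroendocrine cells had library medians of 4982 to 9776 transcripts. All libraries used the same 96 barcodes, so shared barcodes say nothing of shared cells, and 0 kept cells had identical values in another library. The summed level of the 4 defining genes ranged from 12 to 1240 per 10000 with a median of 105. The 5 cells just inside the limit had 12, 12.6, 13.8, 16.4 and 20.8, and the 5 just outside had 9.79, 9.55, 9.17, 9.05 and 9.04. The tuft limit removed 1 cell, at 63.2 per 10000, and the highest tuft sum of a selected cell was 9.62. Markers of other cell types were also summed in these cells. The summed level of 16 Paneth markers was 37.2 to 46 per 10000 in enteroendocrine cells of the 8-week traced CD24+ libraries, against 503 to 1053 in the other cells of those libraries. In the non-traced libraries it was 38 and 59.1, against 992 and 954 in other cells. In the disputed 3-week library the other cells had 1.17. The goblet markers summed to 12.5 to 24.4 per 10000 over the enteroendocrine cells of a library, and 22 of 98 cells reached 20; the highest single cell had 169 for goblet and 166 for Paneth markers. The part of such RNA in the results below was not tested. The 6 leukocyte markers present in the files were at 0 in all 98 cells.

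The granule and exocytosis genes were described next against the other kept cells of the same library. Since measured values chose the cells, these differences are a description with no test. In the 7 libraries with at least 3 enteroendocrine cells, 193 of 2396 genes (8.06%) at a level of 1 or more per 10000 were at least 4-fold higher in the mean over libraries and higher in every library, and 91 (3.8%) were lower by the same measure. Of 16 granule genes in the files 13 reached that level, as did 11 of 19 regulated exocytosis genes, all of them in the enteroendocrine cells alone. They had to differ to be listed, so no count of them is read. Of the granule genes that the selection did not use, Scg2, a secretogranin, averaged 5.11 ± 2.87 per 10000 in enteroendocrine cells and 0.0114 ± 0.0111 in other cells (SD, n = 7 libraries each). Ptprn2, a granule membrane protein, averaged 14.5 per 10000 against 0.485 in other cells, and its lowest library among the enteroendocrine cells, at 10.7, lay above the highest among the other cells, at 0.718. The prohormone convertase Pcsk1 averaged 2.69 against 0.116, and Pam, which amidates peptide hormones, 5.72 against 0.0687.

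The exocytosis genes included the synaptotagmin Syt13 (2.10 per 10000 in enteroendocrine cells, 0.0373 in other cells), the complexin Cplx2 (4.16 and 0.162), and the channel genes Scn3a (1.61 and 0.00456) and Cacna2d1 (1.40 and 0.00206). Of 27 transcription factors in the files 18 reached the level, 15 of them in the enteroendocrine cells alone, so their values are given with no count. Neurod1, which the selection used, averaged 10.5 against 0.0789 per 10000, Isl1 9.22 against 0.0298, Fev 5.66 against 0.0148 and Pax6 4.19 against 0.0126. Sox4 (2.74 and 1.99), Foxa1 (1.45 and 0.664) and Onecut2 (4.38 and 1.43) differed by less than 4-fold. Lmx1a (1.17 and 0.0104) was at 0 in the enteroendocrine cells of the 8-week traced library sorted without CD24. Of the 20 largest ratios, those that belong to no fixed list included the intermediate filament gene Vim (6.62 and 0.0148), the secreted peroxidase Gpx3 (4.03 and 0.00924), the adhesion gene Amigo2 (2.26 and 0.00572), the nucleosome-binding Hmgn3 (5.70 and 0.0149), the calcium sensor Scgn (9.45 and 0.0271), the calcium channel Cacna1h (1.44 per 10000, and 0 in all other cells) and Gm11992 (1.57 and 0.00432). The stem marker Axin2 (0.886 and 1.10) and the Notch ligand Dll1 (0.406 and 0.810) differed by less than 4-fold.

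Each cell was then named by its most abundant hormone group if that group reached 20 per 10000. Tac1 and Tph1 together named 27 cells, Gip 25, Ghrl 11, Sst 7, Gcg with Pyy 5, Cck 3, Sct 3 and Nts 1. A further 11 cells had no hormone at that level but at least 2 Neurog3 transcripts per 10000 and are called Neurog3+ cells without hormone, and 5 cells had neither. The named cells were set apart from the other kept cells: at 20 per 10000, 0 of 462 other cells reached any of the hormone groups except Sst, which 1 cell reached at 39.9. A count of 0 covers detection at this depth only. The hormones named the subtypes, so their own levels between subtypes are a description.

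**Figure D1:**
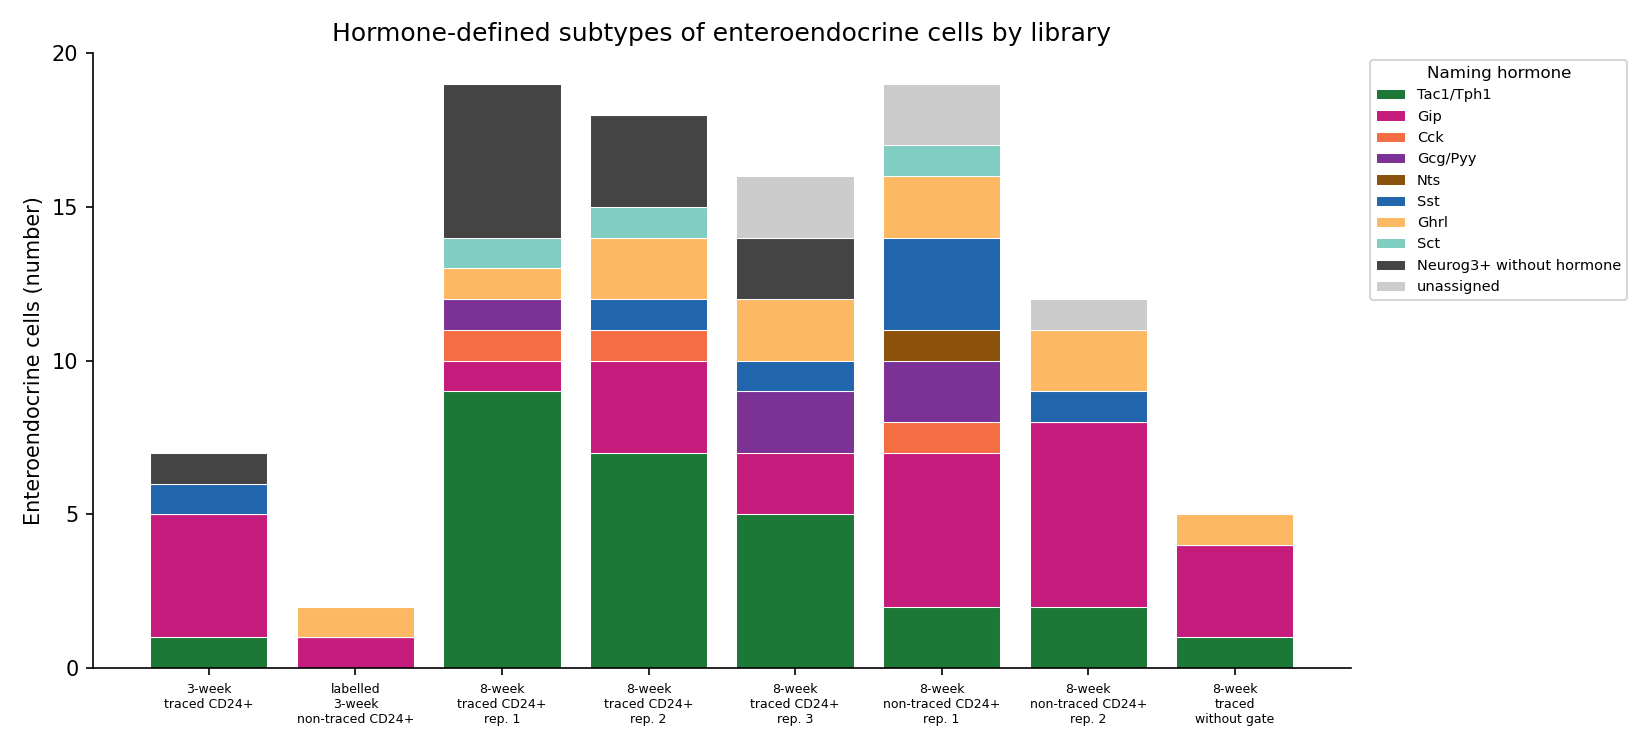
Number of enteroendocrine cells in each of the 8 libraries (vertical axis), divided by naming hormone (colours). Tac1/Tph1 cells make up 9 of 19, 7 of 18 and 5 of 16 cells of the 8-week traced CD24+ libraries, against 2 of 19 and 2 of 12 in the non-traced ones.

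A single hormone group made up most of the hormone transcripts of most cells. In the median Gip cell Gip held 92.5% of the transcripts of the 8 hormone groups, in the median Tac1/Tph1 cell the pair held 93.8%, and in the median Ghrl cell Ghrl held 96.7%. The share was 62% in Gcg/Pyy cells, 70.2% in Cck cells and 55.7% in Sct cells. The total also differed between subtypes: its median was 961 per 10000 in Gip cells, 926 in Sst cells, 254 in Ghrl cells and 112 in Tac1/Tph1 cells. The highest value was 2204 Gip transcripts per 10000 in 1 cell. In 2 cells Gip stood at the upper limit of the molecular barcode count, so their Gip is an underestimate.

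Hormone groups overlapped in 34 cells, in which 17 held 2, 13 held 3 and 4 held 4 groups at 20 per 10000; 48 cells held 1 and 16 held 0. All 9 cells with Gcg/Pyy also held Cck, which is 45% of the 20 Cck cells. Gip and Cck met in 11 cells, 36.7% of the Gip cells and 55% of the Cck cells. Sct was present in 15 of 30 Gip cells and 13 of 20 Cck cells. Ghrl was present in 5 of 7 Sst cells. Tac1/Tph1 stood apart from this set: 0 of 27 such cells held Gip, Cck, Gcg/Pyy, Nts, Sst or Ghrl at that level, and 2 held Sct. Lower levels of Gip and Cck were seen in some of them. The 34 cells with several hormones had a median of 7413 transcripts, the 48 with 1 hormone 6621, and the 16 with none 5064. No doublet caller was run, so the part of cell pairs in these overlaps was not tested.

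**Figure D2:**
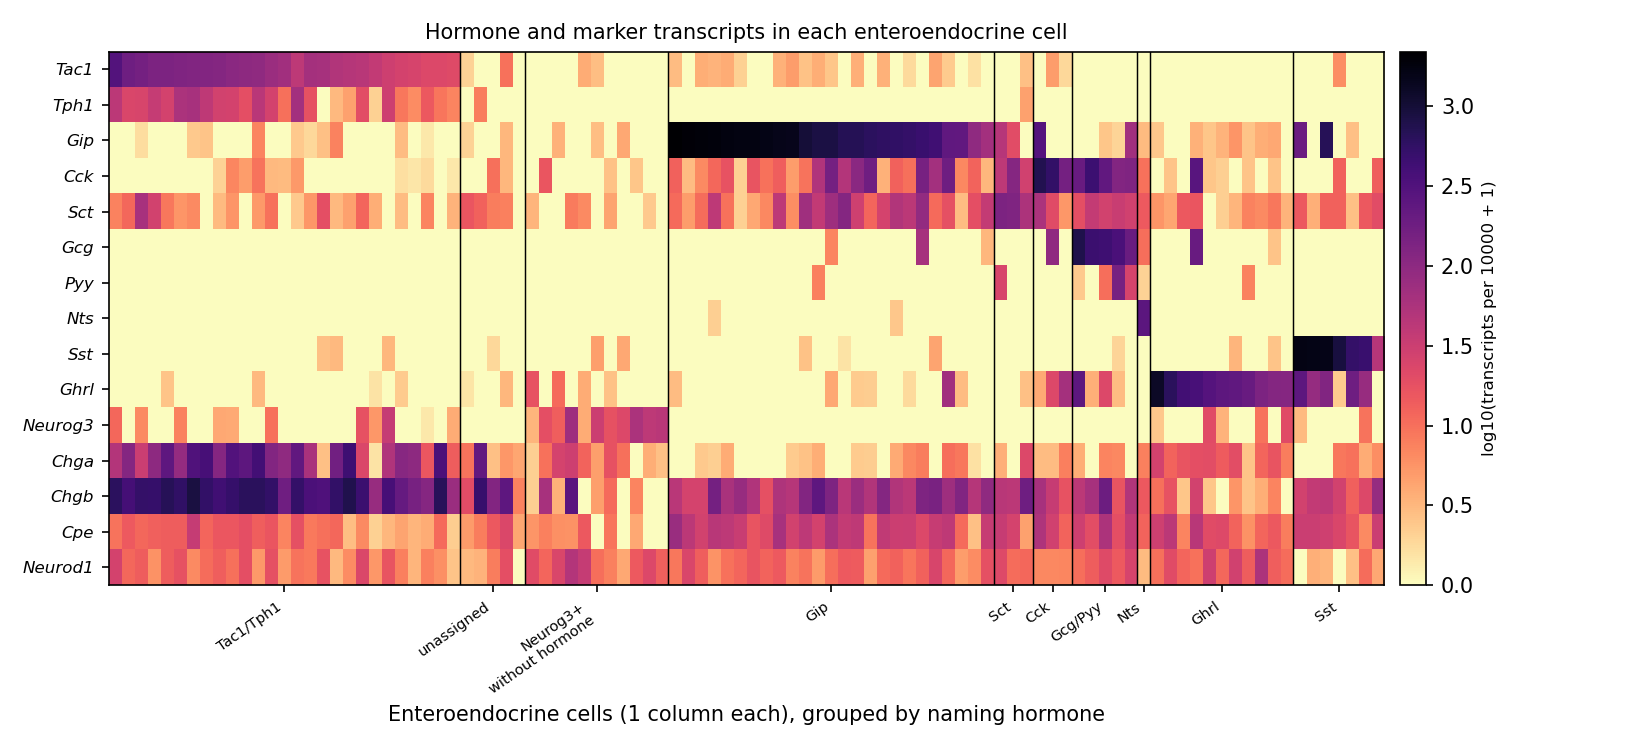
Hormone and marker genes (rows) in each of the 98 enteroendocrine cells (columns), coloured by log10 of transcripts per 10000 plus 1 and grouped by naming hormone. The 27 Tac1/Tph1 cells share no second hormone at 20 per 10000 apart from Sct in 2 cells, whereas Gip, Cck, Sct and Gcg meet in the same cells, and Chga is high in Tac1/Tph1 cells and low in Gip cells.

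The upstream sequences of Tac1 and of 3 hormone genes of the overlapping set are shown because these genes separate these 2 kinds of cells. The windows hold the 250 bases before the RefSeq transcription start in GRCm38.p6 (mm10), written 5′ to 3′ on the gene's strand, with capitals for CAGATG or CATCTG. These are the 2 strands of the E-box form that Neurod1 binds, and no other motif was searched. The Tac1 window is chr6:7554811-7555060 (plus strand), Gip chr11:96024295-96024544 (plus), Cck chr9:121495695-121495944 (minus) and Gcg chr2:62483654-62483903 (minus).
Tac1: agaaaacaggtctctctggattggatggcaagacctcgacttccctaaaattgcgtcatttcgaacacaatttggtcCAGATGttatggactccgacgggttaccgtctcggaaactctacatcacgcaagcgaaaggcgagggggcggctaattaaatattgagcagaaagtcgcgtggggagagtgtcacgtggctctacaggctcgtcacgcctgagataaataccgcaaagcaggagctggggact
Gip: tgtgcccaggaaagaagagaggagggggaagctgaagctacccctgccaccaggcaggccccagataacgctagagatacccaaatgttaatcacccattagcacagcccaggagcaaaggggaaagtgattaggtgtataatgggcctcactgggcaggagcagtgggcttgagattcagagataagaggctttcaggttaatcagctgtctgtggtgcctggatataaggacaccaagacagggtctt
Cck: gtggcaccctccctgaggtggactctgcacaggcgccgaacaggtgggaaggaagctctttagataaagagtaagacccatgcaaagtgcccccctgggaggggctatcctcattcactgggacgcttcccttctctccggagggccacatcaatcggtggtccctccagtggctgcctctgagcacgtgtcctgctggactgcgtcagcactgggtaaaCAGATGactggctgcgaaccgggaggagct
Gcg: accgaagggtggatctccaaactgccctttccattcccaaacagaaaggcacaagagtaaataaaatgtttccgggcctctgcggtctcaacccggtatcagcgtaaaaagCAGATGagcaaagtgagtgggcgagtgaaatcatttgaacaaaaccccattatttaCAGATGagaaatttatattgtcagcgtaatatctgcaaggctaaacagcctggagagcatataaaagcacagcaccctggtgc
Tac1 and Cck had 1 match each, at 173 and 30 bases before the start, Gcg had 2, at 139 and 83 bases, and Gip had 0. Of 32851 promoter windows of this length 14.4% held a match. Of the 19 listed hormone genes with a promoter window, 8 held a match in any of their windows. The first share counts windows and the second counts genes, so they cannot be compared directly. A match shows only that these letters are in the window.

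The Tac1/Tph1 cells, 27 cells in 7 libraries, differed from Gip cells in some serotonin genes and in granule genes. The rate-limiting serotonin enzyme Tph1 was present in 26 of the 27 and in 2 of the 71 other enteroendocrine cells. It averaged 23.3 per 10000 over the 27 cells. Tph1 together with Tac1 named these cells, so its difference from other subtypes is a description only. The transporter Slc18a1, which loads serotonin into granules, averaged 4.84 per 10000, against 0.320 in Gip cells. Chga averaged 154 and Chgb 454 per 10000 in Tac1/Tph1 cells, whereas Gip cells had 1.87 and 81.4. Cpe lay the other way, at 10 in Tac1/Tph1 cells and 33 in Gip cells, and Scg2 was at 0 in all 27 Tac1/Tph1 cells and at 10.3 in Gip cells. Chga, Chgb and Cpe chose the cells, and their sum, not each of them, had to pass. Chga varied widely within the subtype, between 0.529 and 437 per 10000.

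The factor Lmx1a was seen in 25 of 27 Tac1/Tph1 cells, at a mean of 5.69 per 10000, and in 1 of 71 other enteroendocrine cells. It was present in 20 of 21 such cells of the 8-week traced CD24+ libraries (mean 6.06), in 4 of 4 of the non-traced ones (6.18) and in the single 3-week cell, and it was at 0 in the single cell of the library without the gate. Isl1, a factor of the other hormone cells, averaged 0.329 against 12.6 in Gip cells. Only 1 of the 27 Tac1/Tph1 cells held Isl1, at 8.89 per 10000, whereas all 25 Gip cells did. Further genes with the largest ratios were Enho, which codes for the secreted peptide adropin (22 of 27 cells and 2 of 71), and Igfbp2 (12 of 27 and 1 of 71), which binds insulin-like growth factors. Igfbp2 was seen in 3 libraries only, the 8-week traced CD24+ ones. The irritant channel Trpa1 was present in 19 cells at a mean of 6.15 per 10000, and in 3 of the 71 others. Rab3c, a GTPase of secretory vesicles, was present in 26 cells at a mean of 8.15 per 10000.

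The 25 Gip cells came from all 8 libraries. The cannabinoid receptor Cnr1 was seen in 20 of them and in 5 of the 73 other enteroendocrine cells, with a mean of 6.38 per 10000. Pdk4, a kinase that restrains pyruvate oxidation, was seen in 16 Gip cells and 2 others, the protein kinase inhibitor gene Pkib in 16 and 2, the mitochondrial carbonic anhydrase Car5a in 19 and 9, and the phosphatase Alpl in 9 and 0. Without the disputed 3-week library 24 Gip cells remain, of which 19 held Cnr1, 16 Pdk4, 15 Pkib, 18 Car5a and 8 Alpl. Of the Alpl transcripts in Gip cells, 1 cell held 41.2%. The means of Cnr1 in Gip cells were 0.650 per 10000 in the 3-week traced library (4 cells), 4.08 in the 8-week traced CD24+ libraries (6 cells), 7.75 in the non-traced ones (11 cells) and 14.3 in the library without the gate (3 cells). Gip cells also held Slc5a1, the sodium-glucose transporter that senses luminal sugar, at 5.31 per 10000, and Abcc8, the sulphonylurea receptor, at 6.09. Both were lower in Tac1/Tph1 cells, at 0.627 and 0.0653, but other subtypes also held them. In the 8-week non-traced CD24+ libraries Abcc8 averaged 5.93 in Gip, 7.31 in Sst, 5.37 in Ghrl and 4.83 in Gcg/Pyy cells. Slc5a1 averaged 4.10, 3.46, 3.65 and 7.76 in the same order. In the traced ones the means were 2.56, 5.18, 0.606 and 3.57 for Abcc8 and 6.74, 0, 2.49 and 2.25 for Slc5a1.

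Gcg/Pyy, Cck and Sct cells were few, so their means are given as values only. Pax6 averaged 7.91 per 10000 in the 5 Gcg/Pyy cells, 6.90 in the 3 Cck cells, 8.41 in the 3 Sct cells and 7.05 in Gip cells, against 0.852 in Tac1/Tph1 cells. Etv1 averaged 4.78 in Gcg/Pyy cells, 3.44 in Cck cells and 1.42 in Gip cells. Onecut3 averaged 4.54 in Cck cells with a median of 0, so 1 of the 3 cells carried it. The single Nts cell, of 8-week non-traced CD24+ replicate 1, held 258 Nts transcripts per 10000 and 20002 transcripts in all.

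The 11 Ghrl cells had little Chgb, at a mean of 6.38 per 10000. Neurog3 was seen in 5 of the 11. Plb1, a phospholipase gene, was seen in 9 of 11 Ghrl cells and in 4 of the 87 others, and in 8 of 10 Ghrl cells without the disputed library. The antitrypsin genes Serpina1a (9 and 5), Serpina1c (10 and 11), Serpina1d (5 and 1) and Serpina1e (6 and 3) were also among the leading genes. These genes are near-identical copies, so reads could have been shared between them and the count of each is uncertain. In Serpina1c 1 cell held 45.4% of the transcripts of the subtype.

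The 7 Sst cells were marked by Hhex, a homeobox factor that somatostatin cells of the mouse pancreas also use, at a mean of 8.84 per 10000 and at 0 in every other hormone-named subtype apart from Tac1/Tph1 cells (0.0653); 3 of the 5 unassigned cells also held it. They had the highest mean Isl1 of the subtypes with at least 3 cells, at 23.4. Amylin (Iapp), at a mean of 37.3, and the acid-sensing channel Asic5, at 19.1, had low means in all other subtypes with at least 3 cells. The highest of these means were 0.266 for Iapp in Ghrl cells and 1.48 for Asic5 in Gip cells. Single cells were higher: 3 of 25 Gip cells held Asic5, at up to 25.6 per 10000, and 2 held Iapp, at up to 5.48.

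The Neurog3+ cells without hormone, 11 cells in 4 libraries, held a mean of 28.6 Neurog3 transcripts per 10000, with a range among the 8-week cells of 2.25 to 71.3 and a 3-week cell at 21.2. Neurog3 chose them. Of factors that did not choose them and that act early in the lineage, Pax4 was seen in 5 of the 11 cells, with a mean of 5.11 per 10000 and a median of 0, against means of 0.755 in Tac1/Tph1 cells and 0.131 in Gip cells. Sox4 was seen in 9 of 11 cells, with a mean of 10.6 and a median of 7.25, against means of 1.48 and 1.92. The Notch ligand Dll1 was seen in 4 of 11, with a mean of 1.44 and a median of 0, against 0.275 and 0.183. Sox4 was not limited to these cells. In the 8-week traced CD24+ libraries it averaged 9.31 in Ghrl cells (4 of 5 cells) and 10.5 in Neurog3+ cells (8 of 10). In the non-traced ones Sox4 averaged 3.47 in Ghrl cells (3 of 4) and 5.60 in Sst cells (4 of 4). Isl1 was seen in 6 of 11 cells (mean 7.02), while Lmx1a, Hhex and Scg2 were at 0. Outside these cells Neurog3 was seen in 11 of 27 Tac1/Tph1 cells, 5 of 11 Ghrl and 2 of 7 Sst cells, and in 0 of 25 Gip, 5 Gcg/Pyy, 3 Cck and 3 Sct cells. The leading genes were the long noncoding RNA Miat (5 of 11 cells and 5 of 87 others), the homeobox factor Prox1 (6 and 2), Tmem44 (5 and 5), Fcgbp (7 and 29) and the histamine receptor Hrh3 (4 and 5). Ghrl cells shared some of them. Of 5 Ghrl cells of the 8-week traced CD24+ libraries 2 held Tmem44, 1 Hrh3 and 0 Prox1. Of 4 non-traced ones 1 held Tmem44, 1 Hrh3 and 2 Prox1. The single Ghrl cell of the library without the gate held Tmem44 and Hrh3. Fcgbp is a goblet gene, and the goblet markers of the list summed to 4.82 to 169 per 10000 in these 11 cells, with a median over all 98 cells of 9.48. The part of goblet RNA in this subtype was not tested.

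**Figure D3:**
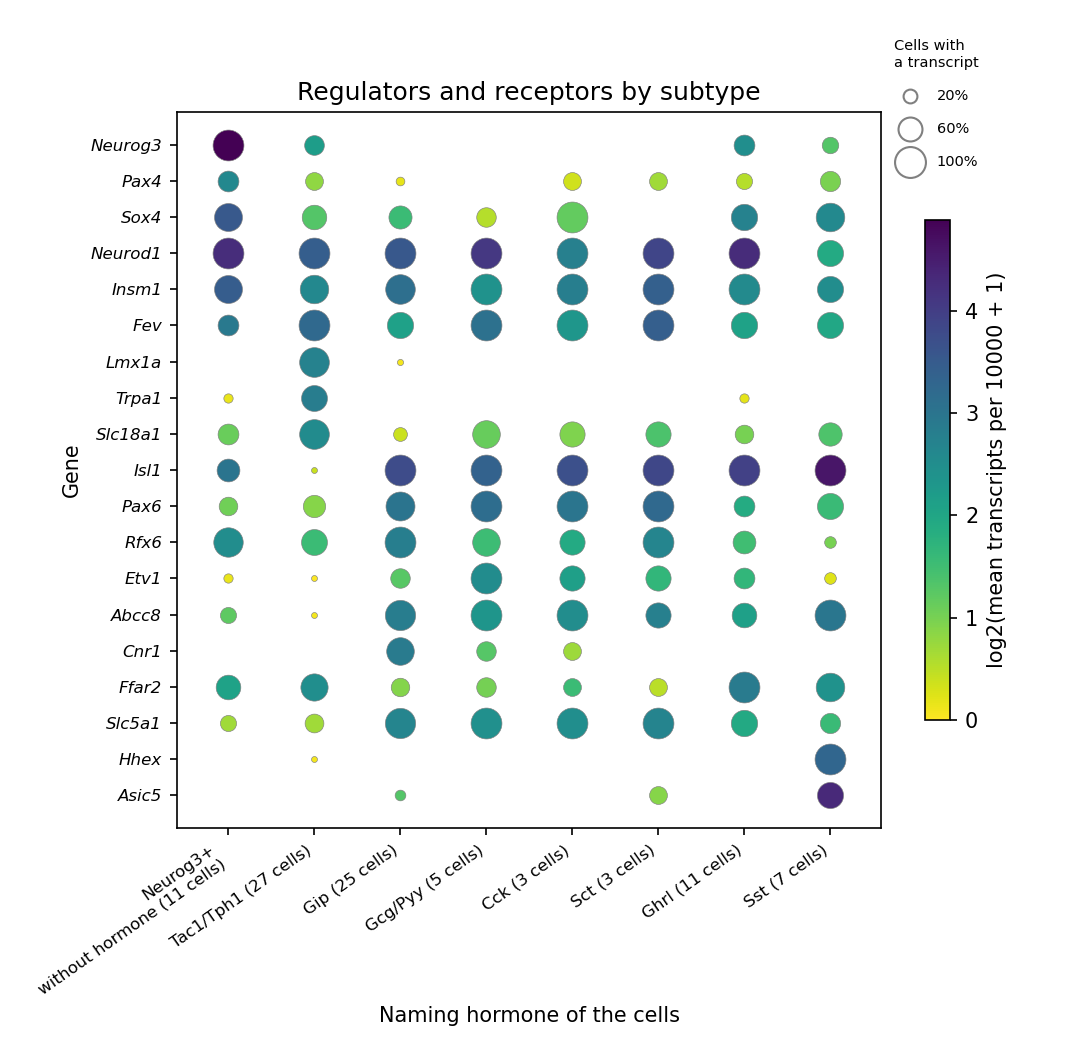
Mean level of 19 transcription factors, transporters and receptors (rows) in 8 subtypes (columns); colour gives log2 of mean transcripts per 10000 plus 1, and dot area the share of cells with a transcript. Lmx1a, Trpa1 and Slc18a1 mark Tac1/Tph1 cells, Isl1 and Pax6 the other hormone cells, and Hhex and Asic5 Sst cells. Isl1 is not limited to hormone cells, being present in 6 of the 11 Neurog3+ cells without hormone. Neurog3 chose the Neurog3+ cells without hormone, so its level there is a description. Pax4 is present in 5 of these 11 cells and in 9 of 27 Tac1/Tph1 cells. Sox4 is present in the Neurog3+ cells and also in Ghrl and Sst cells.

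The groups with 1 library allow no test. In the 3-week traced library 4 of 7 cells were Gip cells (57.1%, 95% exact binomial interval 18.4% to 90.1%), with 1 Tac1/Tph1, 1 Sst and 1 Neurog3+ cell. Its enteroendocrine cells held 506 Gip transcripts per 10000 (exact Poisson interval 484 to 529), 2.39 Chga (1.09 to 4.52) and 0 Tph1, which allows up to 0.974. Among 8-week traced cells sorted without CD24, 3 of 5 were Gip cells (60%, 14.7% to 94.7%), and the 5 cells held 1060 Gip transcripts per 10000. The disputed 3-week library had 1 Gip and 1 Ghrl cell. The intervals cover counting error only.

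Tracing was compared in the 8-week CD24+ libraries, the only groups with replicates on both sides, to ask whether marked enteroendocrine cells differ from unmarked ones of the same gate. Enteroendocrine cells made up 21.8%, 27.7% and 23.2% of the kept cells of the traced libraries, against 22.6% and 19% of those of the non-traced libraries. The groups overlap, and the means of 24.2% ± 3.07 (SD, n = 3) and 20.8% ± 2.53 (n = 2) gave an exact two-sided permutation p = 0.4. Within them, Tac1/Tph1 cells made up 47.4%, 38.9% and 31.2% in the traced libraries, against 10.5% and 16.7% in the non-traced ones. Gip cells made up 5.26%, 16.7% and 12.5% of the traced enteroendocrine cells, against 26.3% and 50.0% of the non-traced ones. Neurog3+ cells without hormone made up 26.3%, 16.7% and 12.5% in the traced libraries, against 0 of 19 and 0 of 12 cells, which allow up to 17.6% and 26.5% (exact binomial). Sst cells made up 0%, 5.56% and 6.25%, against 15.8% and 8.33%. No traced library overlapped a non-traced one in these 4 subtypes, yet the exact permutation p was 0.2 (0.5 after Benjamini-Hochberg adjustment over 10 subtypes), and 0.2 is the smallest that 3 against 2 libraries allow. The Ghrl share, 9.62% ± 3.84 and 13.6% ± 4.34, overlapped between the groups (exact permutation p = 0.6). Enteroendocrine cells had median depths of 7800, 5647 and 5847 transcripts in the traced libraries, against 9776 and 6439 in the non-traced ones. With each cell thinned to 3000 transcripts, Tac1/Tph1 cells made up 47.4%, 38.9% and 31.2%, against 10.5% and 15.4%, and Neurog3+ cells 21.1%, 11.1% and 12.5%, against 0% in both non-traced libraries.

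Genes were tested on counts summed over the enteroendocrine cells of each library, with levels as CPM, the count scaled to a common library total. In a sum, fewer cells of a subtype and less RNA per cell cannot be told apart. Of 2826 genes, 6 (0.212%) passed an adjusted p of 0.05 in edgeR's quasi-likelihood test, 5 higher (0.177%) and 1 lower (0.0354%) in traced cells, and 221 had an unadjusted p under 0.05. The groups did not overlap in 24.2% of all genes. With the set as a block the test called 40 genes (1.42%), 17 higher and 23 lower, among them all 6. Without traced replicate 3 it called 0 genes, without non-traced replicate 2 43, and without non-traced replicate 1 12, so the count depends on single libraries.

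Neurog3 had 666, 480 and 570 CPM in traced libraries, against 72.8 and 42 CPM in non-traced ones. It was 3.17 ± 0.36 higher on the log2 scale (SE; edgeR adjusted p = 0.00463), and it passed in 17 of 19 alternative fits. The exceptions were the fit without traced replicate 3 (adjusted p = 0.0654, edgeR) and the fit limited to cells with a hormone subtype (1.58, adjusted p = 0.115, edgeR). With 16 and 3 counts in the non-traced libraries, Neurog3 passed the filter on low counts through the traced libraries alone. This limits what its adjusted p and the number of fits passed can show. The log2 ratio of Neurog3 was 3.18 in the first set and 3.61 in the second. The other kept cells had 48.5 CPM of Neurog3 with tracing and 3.77 CPM without. Reg4, a secreted lectin found in enteroendocrine and Paneth-lineage cells, had 3533, 5986 and 10737 CPM in traced libraries, against 81.9 and 322 CPM in non-traced ones (5.22 ± 0.73 on the log2 scale, edgeR adjusted p = 0.00797). All 3 traced libraries lay above both non-traced ones, and the log2 ratio was 5.41 in the first set and 4.69 in the second. Reg4, with 18 and 23 counts in the non-traced libraries, could not pass the filter on low counts through those libraries alone. Reg4 lay mostly in Tac1/Tph1 cells: 15 of 21 traced ones held it at a mean of 149 and a median of 7.83 per 10000 over the 21 cells (0 to 748), against 1 of 4 non-traced ones with a mean of 5.71. An unassigned traced cell with 977 per 10000 gave 16.6% of all Reg4 counts. Reg4 averaged 963 CPM over the other traced cells, against 1122 CPM over the other non-traced cells.

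Igfbp2 had 163, 367 and 246 CPM in traced libraries, against 0 CPM in both non-traced ones. Over a floor of 3 counts for the non-traced group, 10.3 CPM, its summed counts were at least 23.3-fold higher (edgeR adjusted p = 0.00493). With 0 counts in non-traced cells, Igfbp2 passed the filter on low counts through the traced libraries alone, which limits what this p can show. Its counts came from 13 cells, 12 of them Tac1/Tph1 cells, and it was at 0 in the non-traced libraries of both sets. The other kept cells had 23.2 CPM with tracing and 0 CPM without. Ube2c and Top2a, genes of dividing cells, also passed. The non-traced libraries held 1 and 0 counts of Ube2c and 2 and 0 of Top2a. Both genes thus passed the filter on low counts through the traced libraries alone, which limits what their adjusted p can show. Ube2c had 178, 157 and 167 CPM in traced libraries, against 4.55 and 0 CPM in non-traced ones, a ratio of summed counts of 49.3 (exact 95% counting interval 8.57 to 1976, edgeR adjusted p = 0.00473). Top2a had 285, 78.5 and 246 CPM in traced libraries, against 9.10 and 0 CPM (ratio 31.7, 8.53 to 266, edgeR adjusted p = 0.0335). In the first set Ube2c had 35 counts in the traced library, against 1 in the non-traced one, and Top2a 56, against 2. In the second set Ube2c had 18 and 17 counts in the traced libraries and Top2a 9 and 25, against 0 for both genes in the non-traced one. The 19 phase genes of the list summed to 21.4, 9.43 and 13.4 per 10000 in traced enteroendocrine cells, against 4.31 and 2.10 in non-traced ones. In other kept cells the sums were 31.8, 31.4 and 17.3 with tracing, against 12.3 and 15.9 without. The sum reached 20 per 10000 in 8 of 53 traced and 0 of 31 non-traced enteroendocrine cells. Of those 8, 5 were Tac1/Tph1 cells, and 6 had over 15000 transcripts; in all, 7 traced and 3 non-traced cells were that deep. When cells of over 15000 transcripts were left out, an alternative chosen after seeing the data, 3 genes passed, Neurog3, Reg4 and Igfbp2, and Ube2c and Top2a fell below the filter on low counts. The other kept cells had 240 CPM of Ube2c with tracing, against 119 CPM without, and 315 CPM of Top2a, against 158 CPM. The part of cell pairs in the deep cells was not tested.

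Cd177, a GPI-anchored surface glycoprotein best known from neutrophils, was the gene that fell, to 178, 218 and 216 CPM in traced libraries, against 601 and 644 CPM in non-traced ones (-1.61 ± 0.27 on the log2 scale, edgeR adjusted p = 0.0335). It passed in 13 of 19 alternative fits. It missed without any 1 of the traced libraries, without non-traced replicate 1, with a marker threshold of 5 and without cells of over 15000 transcripts (edgeR adjusted p of 0.0502 to 0.320). The log2 ratios were -1.75 and -1.56 in the first and second set. Among enteroendocrine cells it lay mostly in Sst cells (means 11.8 per 10000 in 2 traced and 23 in 4 non-traced cells) and Ghrl cells (8.49 in 5 and 23.3 in 4). The other kept cells had 50.9 CPM with tracing, against 92.2 CPM without.

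**Figure D4:**
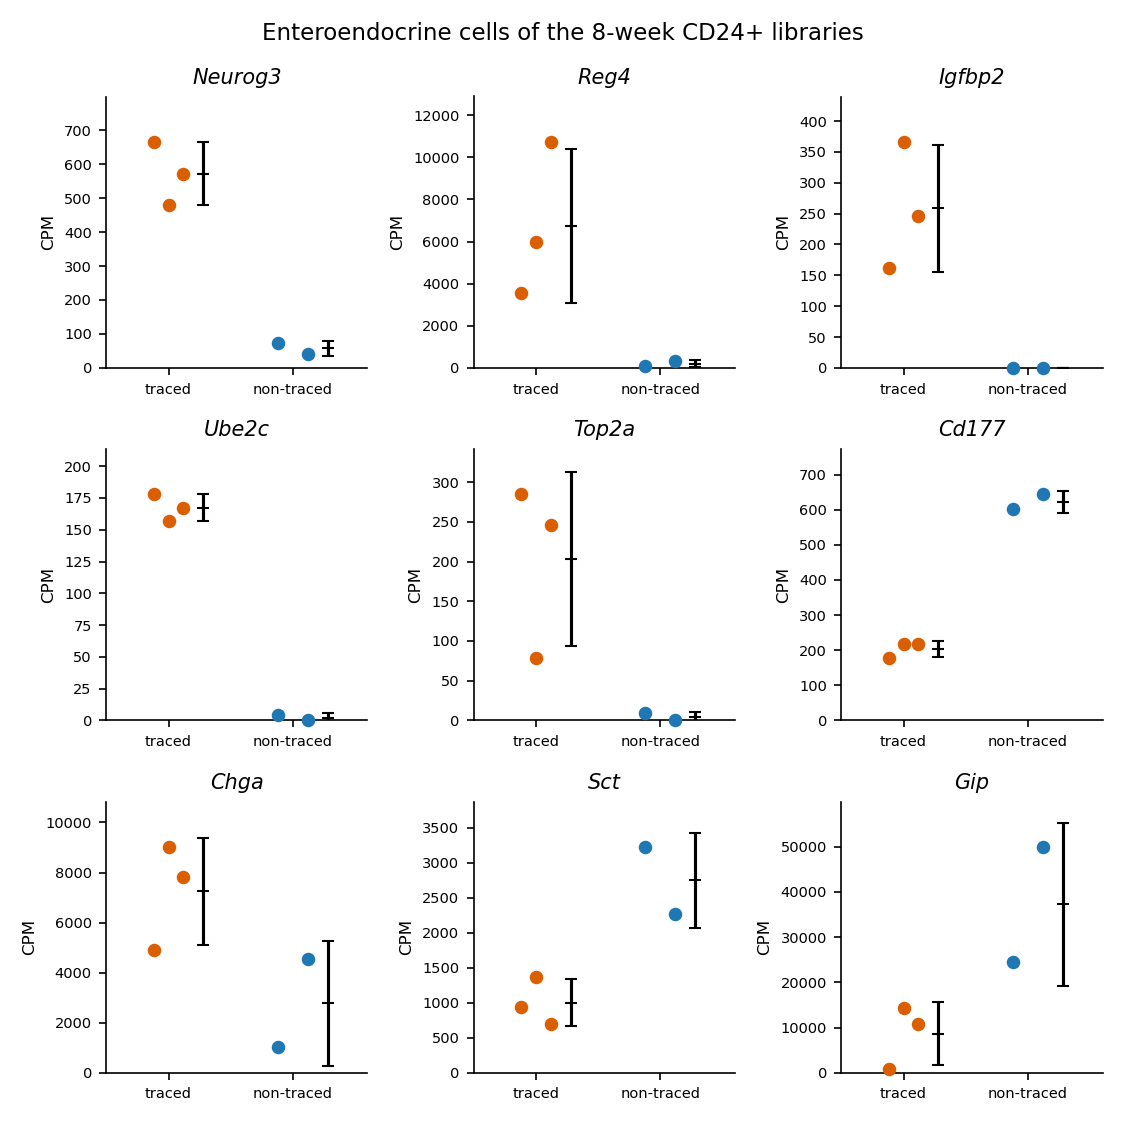
Level of 9 genes in the summed enteroendocrine cells of each 8-week CD24+ library (points, CPM, linear axes from 0), with mean and SD beside the points; 3 traced libraries left, 2 non-traced libraries right. Neurog3, Igfbp2, Ube2c and Top2a entered the test through the traced libraries alone. The first 6 genes passed the threshold. Sct and Gip did not, although their groups do not overlap, and Chga is among the genes that chose the cells and is shown as a description.

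In the fixed lists few genes passed. Of 21 transcription factors tested 1 passed, Neurog3, which entered through the traced libraries. The median log2 difference was 0.02 over the list, against 0.01 over all 2826 genes. Of 19 phase genes 4 passed the filter on low counts. Of these Ube2c, Top2a and Mki67 had 1, 2 and 2 counts in non-traced cells and so entered through the traced libraries, and no share or median of the list is read. Of 13 granule genes 0 passed (median -0.62), nor did any of 12 exocytosis genes (-0.12), 9 hormone genes (-1.30), 7 serotonin genes (0.52) or 7 receptor genes (-1.48), nor did any of 9 Paneth, 3 goblet or 3 stem markers. Chga had 4901, 9032 and 7817 CPM in traced libraries, against 1015 and 4551 CPM in non-traced ones (1.40 ± 0.58 on the log2 scale). Since Chga, Chgb, Cpe and Neurod1 chose the cells, their differences are a description with no test, also within the granule and transcription factor lists. Sct had 946, 1370 and 698 CPM in traced libraries, against 3228 and 2268 CPM (-1.46 ± 0.34, adjusted p = 0.192, edgeR). Gip had 869, 14364 and 10855 CPM, against 24528 and 49963 CPM (-2.10 ± 0.84, adjusted p = 0.565, edgeR). With the set as a block Sct and Gip passed, with edgeR adjusted p of 0.0263 for Sct and 0.00571 for Gip. The log2 ratios were 2.27 and 0.89 for Chga, -1.77 and -1.13 for Sct and -4.82 and -1.99 for Gip in the first and second set. The same block also took Abcc8 (-1.61), Cnr1 (-2.58), Scg3 (-1.49) and the chromatin protein gene Hmgb2 (2.02) past the threshold. Receptor genes that did not pass in either fit included Slc5a1, at 163, 175 and 187 CPM in traced libraries, against 355 and 378 CPM in non-traced ones (-1.07 ± 0.28, adjusted p = 0.217, edgeR).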

How the data were processed

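CEL-seq tags transcript 3′ ends with cell and molecular barcodes. The authors deposited 1 value per gene and cell, an expected count of transcripts. All 3172205 values above 0 equal, within 0.01, a collision-corrected count out of 256 molecular barcodes, and 145 stood at the upper limit of 1597. Per the submitters' processing notes BWA 0.6.2-r126 and mm10 were used; gene models and filters are not given in the sources used here. The combined table has 96 columns whose name fits no sample's label. Their values equal those of the disputed 3-week library, which was read from its own file; of the table only the set names were used.

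Levels are transcripts per 10000 without spike-in RNA. For the comparison of traced and non-traced cells, sums per library were rounded to whole counts and entered in edgeR 4.0.16 (quasi-likelihood test, TMM, filterByExpr, adjusted p under 0.05) in R 4.3.3; DESeq2 1.42.0 was an alternative. Shares were compared by exact permutation over libraries. The labels do not say whether replicates are separate animals, so p-values may measure technical spread. The 2 pairs of equal replicate numbers had residual correlations of 0.31 and 0.27, and the numbers were not taken to pair libraries. With 2 non-traced libraries their residuals mirror each other, so these correlations cannot decide on pairing.

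Cells and lists were chosen with earlier results of these data known. Genes named were up to 10 rises and falls past the threshold with at least 20 CPM, the 20 largest ratios over other cells at 1 or more per 10000, and the 5 largest per subtype of at least 8 cells seen in 3 or more libraries, besides listed genes. Subtype ratios use libraries with at least 2 such cells, weighted equally, a choice made after values were seen, as were the limits of 15000 transcripts and of 20 per 10000 for phase genes, the level of 1 per 10000 against other cells, the motif, the promoters shown, and Chga, Sct, Gip, Abcc8, Cnr1, Scg3, Hmgb2 and Slc5a1 in the tracing test. Sequences are from RefSeq (GRCm38.p6).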

Additional observations from a re-analysis of the deposited data

Results flagged for a closer look

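Libraries outside the comparisons above also held such cells: of 332 kept cells in the 5 libraries of 5-day traced cells, sorted without CD24, 14 passed the enteroendocrine thresholds, 2, 2, 2, 3 and 5 by replicate. They were 4 Tac1/Tph1, 2 Gip, 2 Sst, 2 Ghrl, 1 Nts and 1 Neurog3+ cell without hormone, with 2 unassigned. A sum of the phase genes of 20 per 10000 or more was seen in 7 of the 14, against 8 of the 98 cells of the later libraries. The sum of the 4 defining genes was under 20 per 10000 in 7 of the 14 cells, against 4 of the 98, and 5 of the 7 cells with high phase genes were among those 7.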

How the results depend on the processing

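The genes that passed between traced and non-traced cells numbered 6. Other settings gave 10 with a floor of 5000 transcripts, 10 with cells of a hormone subtype only, 3 with a marker threshold of 5, 3 without cells of over 15000 transcripts (chosen after seeing the data), 67 without the filter on low counts, 40 with the set as a block and 128 with the replicate block, which leaves out traced replicate 3. Leaving out 1 library at a time gave 0 to 43, and DESeq2 called 9. The cause of these changes was not tested. The named genes kept their direction in all fits run. The Gcg/Pyy share difference, 0.658 percentage points, turned to -3.16 with a floor of 1500 transcripts and -1.10 with cells thinned to 3000 transcripts. Leaving out single libraries gave -4.61 to 5.92 for Gcg/Pyy, and -1.66 to 3.61 for Cck and for Sct. Summed lists (traced minus non-traced, per 10000) ranged from -36.0 to 143 for granule, -2.47 to 10.4 for serotonin and -12.4 to 10.6 for transcription factors, the last also turning to 2.10 with a floor of 5000 and 0.905 with no tuft limit. The enteroendocrine share difference, 3.41 percentage points, was 0.0518 with a floor of 5000 transcripts and 1.62 to 5.19 with single libraries left out. With 12 to 19 enteroendocrine cells a library, depth and cell number limit every share.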
